A study of Mus musculus with 9 samples.

Results

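The mitochondrial ribosomal protein genes are the nuclear genes whose products form the ribosome inside mitochondria. They were taken as all genes of the expression table whose GENCODE M21 symbol begins with Mrpl or Mrps followed by a digit, a rule that uses names alone and no measured value. It found 77 of the 14477 genes in the table, 76 of them protein coding and 1 a processed pseudogene, Mrpl23-ps1. The annotation holds 83 symbols of this form, 78 of them protein coding, and Mrpl53 and Mrps34 are not analysed here. Of the 77 members, 50 encode proteins of the large subunit and 25 proteins of the small subunit. The last of the protein-coding members, Mrps36, carries a ribosomal name, but its product is known as a subunit of the oxoglutarate dehydrogenase complex. The pseudogene was placed in no subunit.

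RNA was sequenced from green fluorescent cells of adult mice of the strain B6.Cg-Tg(Nes-EGFP)1Yamm, which express the fluorescent protein under control of regulatory DNA from Nestin, an intermediate filament gene of neural precursors. Cells were sorted from the dissected dentate gyrus of the hippocampus (DG, n = 5 libraries) or from the subventricular zone beside the lateral ventricle (SVZ, n = 4 libraries). Both groups carried the transgene, received no treatment and lived in standard housing, and the labels give no exact age. The comparison asked how precursor cells of these neurogenic regions differ in expression, and both groups were defined by the same reporter. The labels do not say whether libraries are separate animals or pools. The p-values therefore set a difference only against the spread among these libraries, which may be partly technical. In bulk samples such as these, fewer cells of a type and less RNA per cell cannot be told apart.

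The mitochondrial ribosome translates the few messenger RNAs that the mitochondrial genome encodes, all of which specify core subunits of the respiratory chain and of ATP synthase. Its ribosomal RNAs come from the mitochondrial genome, and all of its proteins are made in the cytosol and imported. Some of these proteins descend from bacterial ribosomal proteins, and others were added in the mitochondrial lineage and have no bacterial counterpart. Neural stem cells are known to rely more on oxidative phosphorylation as they leave quiescence and begin to form neurons.

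Promoters of nuclear genes for mitochondrial proteins are known for sites of the transcription factors NRF1, of the ETS family (such as GABP) and YY1. In promoter windows of RefSeq (GRCm38.p6, 250 bases before to 50 after each start), 68 of the 77 members were matched by symbol and 9 were not. Each window was searched on both strands for CCGGAAG (ETS), ATGGCGG (YY1) and, for NRF1, GCGCA followed by any base and GCGC. The ETS letters were present in 25 members (36.8%), against 18.9% of the 10834 genes of the table with a window and 9.93% of all 27025 genes with a window. The NRF1 letters were present in 13 members (19.1%, against 11% of the genes of the table) and the YY1 letters in 12 (17.6%, against 8.86%). At least 1 of the 3 was present in 41 members (60.3%) and in 33.2% of the genes of the table, and 9 members held 2 or more, with 0 members in which matches to different motifs shared bases. Median GC content of the windows was 58% in the members and 60.7% in the genes of the table. A match describes letters in a window and does not show a bound site.

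The stretches below are shown because they carry these letters, or belong to a gene the results turn on, in bases just before a RefSeq start that no annotated exon covers. Capitals mark a motif match on either strand, and each stretch is written 5′ to 3′ on the strand of the gene. The first is from Mrpl34 (chr8:71464776-71464925, plus strand), with 1 ETS match, and the next from Mrps22 (chr9:98601680-98601829, minus strand), also with 1 ETS match. Both genes were higher in SVZ. Mrpl45 (chr11:97315566-97315715, plus strand) held 2 NRF1 matches and Mrpl43 (chr19:45006443-45006557, minus strand) held 2 ETS matches, and neither gene passed the test. The last are from Mrpl48, the member higher in DG, at its annotated start (chr7:100608302-100608451, minus strand), where none of the 3 motifs occurred, and at an inner RefSeq start (chr7:100583131-100583280, minus strand), with 1 ETS match. Of its 4 windows only 1 held that match.
Mrpl34: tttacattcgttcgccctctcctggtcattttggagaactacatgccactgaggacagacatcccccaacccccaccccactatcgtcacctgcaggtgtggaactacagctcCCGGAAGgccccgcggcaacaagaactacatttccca
Mrps22: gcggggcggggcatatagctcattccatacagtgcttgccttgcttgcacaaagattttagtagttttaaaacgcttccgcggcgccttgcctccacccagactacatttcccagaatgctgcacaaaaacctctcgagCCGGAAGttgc
Mrpl45: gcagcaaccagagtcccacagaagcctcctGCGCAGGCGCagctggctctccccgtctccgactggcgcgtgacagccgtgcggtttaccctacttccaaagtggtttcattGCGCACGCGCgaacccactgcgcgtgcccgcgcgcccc
Mrpl43: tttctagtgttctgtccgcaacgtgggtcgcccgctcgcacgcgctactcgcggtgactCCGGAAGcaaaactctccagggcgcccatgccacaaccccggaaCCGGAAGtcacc
Mrpl48, annotated start: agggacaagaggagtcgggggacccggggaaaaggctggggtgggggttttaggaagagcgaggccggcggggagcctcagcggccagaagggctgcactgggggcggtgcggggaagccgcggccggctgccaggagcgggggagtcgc
Mrpl48, inner start: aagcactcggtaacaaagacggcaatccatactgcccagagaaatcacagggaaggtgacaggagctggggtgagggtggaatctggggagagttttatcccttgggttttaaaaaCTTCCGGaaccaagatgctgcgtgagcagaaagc

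The libraries held 31126803 to 41164044 reads over the genes of the table, so that even the lowest count of a protein-coding member in any library was 51 reads. Levels are given as log2 CPM, that is, the log2 of a gene's reads scaled to a common library total after adding a prior count of 1 read. The sorted populations differed in the other cell types they could hold. All 14 pericyte and smooth muscle markers and all 15 endothelial markers were higher in DG, with summed levels of 6233 to 13141 CPM and 1352 to 2640 CPM against 82.9 to 202 CPM and 21.1 to 91.4 CPM in SVZ. All 12 neuroblast markers and 15 of 16 cell cycle markers were higher in SVZ, with sums of 20351 to 24046 CPM and 5145 to 6161 CPM against 5379 to 8233 CPM and 1461 to 1992 CPM in DG. Ependymal markers were also higher in SVZ (11 of 12, sums of 145 to 405 CPM against 25.2 to 45.3 CPM in DG). Fibroblast and meningeal markers (10 of 10, 548 to 1066 CPM against 20.6 to 33.1 CPM in SVZ) and oligodendrocyte lineage markers (8 of 10, 3767 to 6478 CPM against 1516 to 2894 CPM) were higher in DG. No marker of these lists was at 0 reads throughout a group. Of 14 astroglial stem cell markers, 9 were higher in DG and 3 in SVZ, among them Nes itself (log2 fold change -0.95). How much of the differences below follows these cell types was not tested. DG 3 stood apart by its mature neuron markers (960 CPM against 224 to 294 CPM in the other DG libraries), DG 2 by its neuroblast markers (8233 CPM against 5379 to 5882 CPM) and SVZ 1 by its endothelial markers (91.4 CPM against 21.1 to 35.8 CPM), and counts are given with and without these 3.

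Most members differed little between the regions, and those that passed the test were nearly all higher in SVZ. Of the 77, 24 were higher in SVZ (31.2%, where 33.7% of all genes were), 1 was higher in DG (1.30%, where 32.9% of all genes were) and 52 did not pass (limma, Benjamini-Hochberg adjusted p under 0.05 over all genes). In all, 32.5% of the members were called, where 66.6% of the table was. With all libraries, the share higher in SVZ was thus close to the background, and the share higher in DG was below it. The median log2 fold change, DG minus SVZ, was -0.22, beside -0.07 for all genes. Once genes averaging under 3 log2 CPM were dropped, the medians were -0.21 for the 70 members kept and -0.13 for all genes kept. The gap between members and all genes was then narrower. Of the 77 members, 62 had a negative and 15 a positive value. The sign changed in 1 of the 77 under TMM scaling and in 5 without DG 5, a number that no alternative exceeded. Differences were small: the values ran from -0.99 to 0.65, 0 members reached 1 in size where 35.6% of all genes did, and 6 reached a 1.5-fold difference where 56.6% of all genes did. The median size of the difference was 0.26 in the members and 0.69 in all genes. In 15 members every DG library lay below every SVZ library (28.3% of all genes), in 1 the DG libraries were all higher (29.7% of all genes), and in 61 the groups overlapped.

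The narrow range of differences was measured with little spread. The pooled SD within groups had a median of 0.19 log2 CPM in the members and 0.28 in all genes, and it was below the all-gene median in 68 of 77. The members also stood at a higher median level (5.49 against 4.28 log2 CPM), and the spread was not compared at matched levels. Of the 52 members that did not pass, 26 had a 95% interval of the log2 fold change that lay within 0.5 either way and 50 had one within 1. Without DG 2, DG 3 and SVZ 1, 14 of the 77 members passed as higher in SVZ, a share below the 29.35% of all genes in that fit. In the same fit 3 passed as higher in DG, where 29.9% of all genes did. The median was then -0.21, beside -0.09 for all genes. The DG count was also 3 under TMM and median-of-ratios scaling, 4 without DG 3 and 2 without DG 4. Mrpl10, Mrpl17 and Mrps7 were the genes that joined. Of all genes, 31.9% (without DG 4) to 34.6% (TMM) were higher in DG in these fits. Under TMM and median-of-ratios scaling, 20 and 22 members were higher in SVZ, where 30.9% and 31.9% of all genes were. The member medians under these scalings were -0.16 and -0.18, beside -0.02 and -0.04 for all genes.

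**Figure D1:**
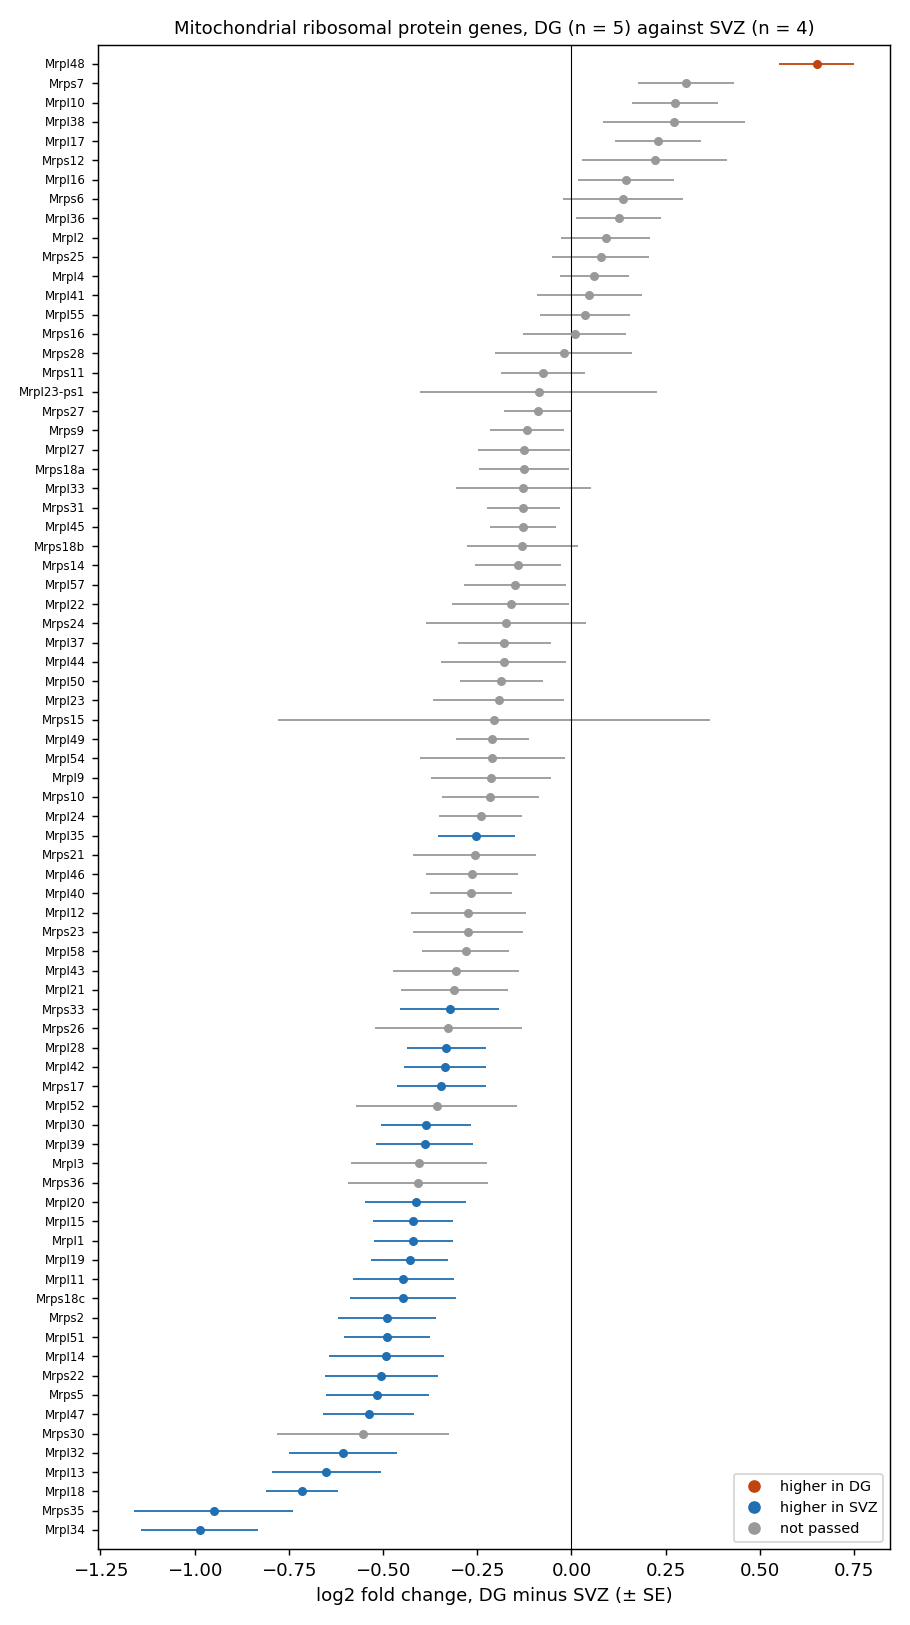
Log2 fold change, DG (n = 5) minus SVZ (n = 4), of the 77 mitochondrial ribosomal protein genes, ordered by value; points are limma estimates, bars are standard errors and colours give the call. The values run from -0.99 (Mrpl34) to 0.65 (Mrpl48), and 62 lie below 0.

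The largest difference was in Mrpl34, a short large-subunit gene with a bacterial homologue (ENSMUSG00000034880, mm10 chromosome 8, 71464959 to 71465747, plus strand), whose upstream stretch is shown above. Its levels were 5.13, 5.54, 4.93, 5.48 and 5.52 log2 CPM in DG 1 to DG 5 and 6.24, 6.39, 6.56 and 6.05 in SVZ 1 to SVZ 4. The groups did not overlap, with DG 2 the highest DG library and SVZ 4 the lowest SVZ library. The means were 5.32 ± 0.28 (SD, n = 5) and 6.31 ± 0.22 (SD, n = 4), a 1.98-fold difference (log2 fold change -0.99, SE 0.16, limma adjusted p = 0.00019).

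Mrps35 encodes a small-subunit protein without a bacterial homologue (ENSMUSG00000040112, chromosome 6, 147042764 to 147073991, plus strand). It was among the members at low levels, with 2.61, 2.07, 2.41, 2.25 and 2.24 log2 CPM in DG and 3.10, 3.80, 2.87 and 3.29 in SVZ. The groups did not overlap, and SVZ 2 was the highest library. The difference was 1.93-fold (log2 fold change -0.95, SE 0.21, limma adjusted p = 0.00209). Mrpl18 encodes a protein of the central protuberance, the ridge of the large subunit that faces the small one (ENSMUSG00000057388, chromosome 17, 12911349 to 12916345, minus strand). Its levels were 6.11, 6.33, 6.26, 6.35 and 6.43 log2 CPM in DG and 6.93, 7.04, 6.90 and 7.18 in SVZ. Both groups were tight and clearly apart, which gave the smallest adjusted p of the members (1.64-fold, log2 fold change -0.72, SE 0.10, limma adjusted p = 5.8e-05).

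A pair of other large-subunit genes with bacterial homologues differed by more than 1.5-fold. Mrpl13 (chromosome 15, 55534094 to 55557748, minus strand) stood at 5.09, 5.46, 4.95, 5.41 and 5.69 log2 CPM in DG and at 5.94, 5.94, 5.99 and 6.02 in SVZ. The SVZ libraries were nearly level, and all DG libraries were lower (1.57-fold, log2 fold change -0.65, limma adjusted p = 0.00208). Mrpl32, whose product is known to be matured by the mitochondrial m-AAA protease before it joins the ribosome (chromosome 13, 14608184 to 14613165, minus strand), stood at 4.80, 5.39, 4.76, 5.08 and 5.29 in DG and at 5.68, 5.60, 5.73 and 5.67 in SVZ. Again every DG library was below every SVZ library (1.52-fold, log2 fold change -0.61, limma adjusted p = 0.00299).

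The other 3 genes named by size of difference were also higher in SVZ. Mrpl47, which encodes a protein at the rim of the exit tunnel (chromosome 3, 32725397 to 32737605, minus strand), was at 4.60, 4.87, 4.44, 4.81 and 4.92 log2 CPM in DG and at 5.30, 5.23, 5.23 and 5.30 in SVZ (log2 fold change -0.54, limma adjusted p = 0.00216), and 24.2% of its exon bases are shared with opposite-strand genes. Mrps5, whose product lies near the messenger RNA entry and the decoding site (chromosome 2, 127587222 to 127606829, plus strand), was at 6.40, 6.49, 5.83, 6.42 and 6.51 in DG and at 6.88, 6.93, 6.84 and 6.73 in SVZ. The low DG value was that of DG 3, and the other DG libraries also lay below all SVZ libraries (log2 fold change -0.51, limma adjusted p = 0.0063). Mrps22, a small-subunit gene without a bacterial homologue (chromosome 9, 98588730 to 98601660, minus strand), was at 3.71, 3.76, 3.27, 3.56 and 3.41 in DG and at 4.02, 4.25, 4.07 and 3.85 in SVZ. The gap between the groups was the narrowest of these 8 genes, with DG 2 at 3.76 and SVZ 4 at 3.85 (log2 fold change -0.50, limma adjusted p = 0.0115).

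Mrpl48 was the only member called higher in DG. It encodes another protein of the central protuberance, one without a bacterial homologue (ENSMUSG00000030706, chromosome 7, 100545751 to 100608301, minus strand). Its levels were 5.94, 6.07, 5.92, 6.05 and 6.23 log2 CPM in DG and 5.25, 5.41, 5.51 and 5.39 in SVZ. The lowest DG library exceeded the highest SVZ library. The means were 6.04 ± 0.13 (SD, n = 5) and 5.39 ± 0.11 (SD, n = 4), a 1.57-fold difference (log2 fold change 0.65, SE 0.10, limma adjusted p = 0.000165). The call was kept under all 16 alternatives, with log2 fold changes of 0.60 to 0.71. Of its annotated exon bases, 708 (8.68%) are shared with the opposite-strand gene Rab6a, which was also higher in DG (0.41), and the libraries do not mark strand.

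**Figure D2:**
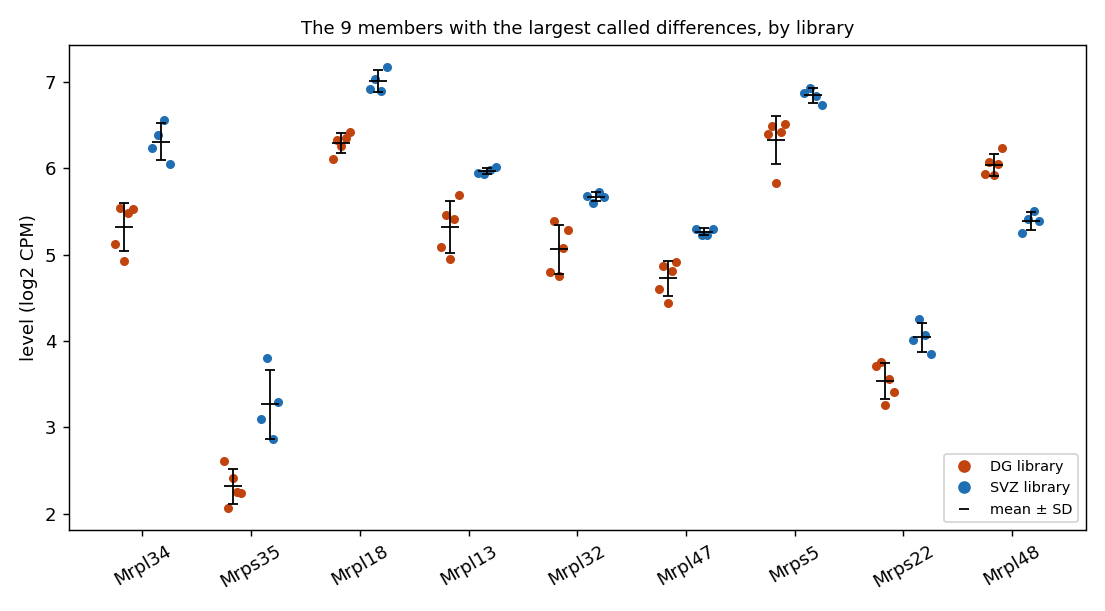
Level in log2 CPM of the 9 members named by size of difference, for each DG library (n = 5) and SVZ library (n = 4), with mean ± SD. In 8 members every DG library lies below every SVZ library, and in Mrpl48 the order is the opposite.

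With all libraries, the share of genes higher in SVZ was near that of all genes (33.7%) in both subunits. Of 50 large-subunit genes, 17 (34%) were higher in SVZ, 1 in DG and 32 did not pass, with a median log2 fold change of -0.26. Of 25 small-subunit genes, 7 (28%) were higher in SVZ, 0 in DG and 18 did not pass, with a median of -0.17. By origin, 18 of 46 genes with a bacterial homologue (39.1%) and 6 of 27 genes found in mitochondria alone (22.2%) were higher in SVZ, with medians of -0.23 and -0.26. Mrps18a and Mrps18b, of which 0 passed, were kept apart from both as paralogues of Mrps18c. In the large subunit, 14 of 30 genes with a homologue (46.7%, median -0.29) and 3 of 19 without one (15.8%, median -0.21) were higher in SVZ. In the small subunit, 4 of 16 genes with a homologue (25%) and 3 of 8 without one (37.5%) were. The differences between these groups were not tested. Without DG 2, DG 3 and SVZ 1 the SVZ counts were 10 in the large and 4 in the small subunit. Both shares were then below the 29.35% of all genes higher in SVZ in that fit.

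No neighbourhood of the ribosome was called in full. The stalk, which recruits translation factors, is formed with the products of Mrpl10, Mrpl11 and Mrpl12. Mrpl11 was higher in SVZ, at 6.12 ± 0.27 against 6.56 ± 0.06 log2 CPM (log2 fold change -0.45, limma adjusted p = 0.0118). Mrpl12 did not pass (-0.27, adjusted p = 0.133), and Mrpl10 had a positive value just short of the threshold (0.27, adjusted p = 0.0519). Mrpl10 stood at 6.01, 5.83, 5.51, 5.78 and 5.91 in DG and at 5.41, 5.53, 5.65 and 5.54 in SVZ, so that only DG 3 lay within the SVZ range, and it passed under 5 of the 16 alternatives, among them the one without DG 3.

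The central protuberance held both Mrpl18 and Mrpl48, called in opposite directions. Of its other 4 genes, Mrpl40 (-0.27, limma adjusted p = 0.0503), Mrpl46 (-0.26, adjusted p = 0.0771) and Mrpl58 (-0.28, adjusted p = 0.0503) had negative values and Mrpl38 a positive one (0.27, adjusted p = 0.216), and none passed. Mrpl58 encodes a peptidyl-tRNA hydrolase that is built into the large subunit. At the rim of the exit tunnel, where the new chain leaves towards the inner membrane, 2 of 8 genes were higher in SVZ. These were Mrpl47 and Mrpl39 (4.90 ± 0.10 against 5.29 ± 0.25 log2 CPM, log2 fold change -0.39, limma adjusted p = 0.0199). The call of Mrpl39 was lost under 4 of the 16 alternatives, among them those without SVZ 2, without SVZ 3 and without the 3 libraries (adjusted p up to 0.0973 over the alternatives). Mrpl45, whose product ties the ribosome to the inner membrane, was at 6.46 ± 0.09 log2 CPM in DG and 6.59 ± 0.10 in SVZ (-0.13, limma adjusted p = 0.207). Mrpl22, Mrpl23, Mrpl24 and Mrpl44 had values of -0.16, -0.19, -0.24 and -0.18, and Mrpl17 had 0.23, and none of these passed. Without SVZ 4, its lowest library, Mrpl44 passed (-0.37, limma adjusted p = 0.00896). Beside Mrps5, the decoding and messenger RNA entry region held Mrps12 (0.22, adjusted p = 0.323), a homologue of a bacterial protein that governs decoding accuracy, and Mrps24 (-0.17, adjusted p = 0.48).

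The 3 genes Mrps18a, Mrps18b and Mrps18c encode paralogues of 1 bacterial protein that occupy separate places in the ribosome, the first of them in the large subunit. Only Mrps18c passed, at 4.63 ± 0.26 log2 CPM in DG and 5.08 ± 0.10 in SVZ (log2 fold change -0.45, limma adjusted p = 0.0159). Its call was lost without DG 2, DG 3 and SVZ 1 (adjusted p = 0.0971). Of the exon bases of Mrps18c, 23.2% are shared with Gm43511, an annotated gene on the same strand. Gm43511 was also higher in SVZ (-0.91), at a mean of 1.52 log2 CPM over all libraries. Mrps18a (-0.13, adjusted p = 0.361) and Mrps18b (-0.13, adjusted p = 0.448) did not pass. Whether the paralogues differ from each other was not tested. Mrps30, named for the small subunit but placed in the large one, was low throughout, at 0.87 ± 0.18 in DG and 1.42 ± 0.32 log2 CPM in SVZ (-0.55, adjusted p = 0.0513). Mrps36, the oxoglutarate dehydrogenase subunit, was at 2.76 ± 0.25 and 3.17 ± 0.24 (-0.41, adjusted p = 0.0718). The pseudogene Mrpl23-ps1, whose values are uncertain because it resembles Mrpl23, was at 0.25 ± 0.36 and 0.34 ± 0.49 (-0.09, adjusted p = 0.816).

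Most of these proteins are known to be present once in each ribosome, and the levels of their genes spanned a wide range. The median member stood at 5.49 log2 CPM, above the median of 4.28 of all genes, and protein-coding members ran from 1.12 to 7.54. Per kilobase of annotated exon, the median was 4.35 log2 CPM per kilobase, with quartiles of 3.16 and 4.92. The highest were Mrpl28 at 7.08, Mrpl34 at 6.48 and Mrpl18 at 6.13 log2 CPM per kilobase, and the lowest protein-coding members were Mrps35 at -0.37, Mrps26 at -0.48 and Mrps30 at -1.62. The annotated exons of these 3 low members sum to 8631, 4358 and 6666 bases, against 1380, 607 and 1398 bases in the 3 high ones. The union of annotated exons can exceed the transcript that is made, which lowers the value per kilobase. Mrpl28 was higher in SVZ (7.40 ± 0.12 against 7.73 ± 0.19 log2 CPM, log2 fold change -0.33, limma adjusted p = 0.0158), and its call was lost without SVZ 2, without SVZ 3 and without the 3 libraries (adjusted p up to 0.111 over the alternatives). Mrps26 did not pass (-0.33, adjusted p = 0.156).

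Most members ordered the DG libraries alike at the extremes. DG 3 was the lowest DG library in 57 of the 77 members, and DG 5 was the highest in 52. The median distance of the members from their DG mean was -0.09, 0.03, -0.21, 0.02 and 0.22 log2 CPM in DG 1 to DG 5. The SVZ libraries were closer together, with medians of -0.07, 0.03, 0.07 and -0.01 in SVZ 1 to SVZ 4. Summed over the members, the levels were 3379, 3668, 3084, 3617 and 4148 CPM in DG and 4006, 4290, 4388 and 4007 CPM in SVZ, so that DG 5 lay inside the SVZ range and the other DG libraries below it. The cytosolic ribosomal protein genes ordered the DG libraries at the extremes in the same way, with the lowest sum in DG 3 (11654 CPM) and the highest in DG 5 (22823 CPM). Without DG 5, 31 of the 77 members were higher in SVZ, a share above the 32.7% of all genes in that fit. Without DG 3, 22 were, a share below the 33.3% of all genes. The medians were -0.29 without DG 5 and -0.17 without DG 3, beside -0.06 and -0.08 for all genes.

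**Figure D3:**
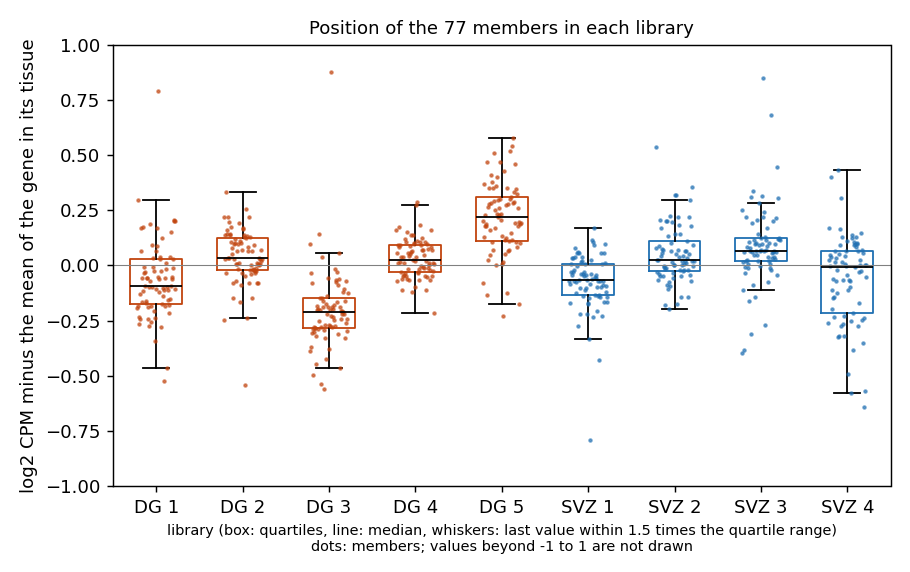
Distance of each of the 77 members from its mean in the same tissue, in log2 CPM, for the 5 DG and 4 SVZ libraries; dots are members and boxes give quartiles and median. The median lies at -0.21 in DG 3 and 0.22 in DG 5, and within 0.07 of 0 in the SVZ libraries.

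Mrps15, a small-subunit gene with a bacterial homologue that was singled out after its values were seen, varied most. Its levels were 4.63, 3.30, 4.71, 4.13 and 2.43 log2 CPM in DG and 3.26, 5.18, 4.90 and 2.85 in SVZ. Both regions held libraries below 3 and libraries above 4, and the groups overlapped throughout. Its pooled SD of 1.06 stood at the 97.8th percentile of all genes, and the difference was -0.21 with an SE of 0.57 (limma adjusted p = 0.764).

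Many members start close to another gene on the opposite strand. An annotated protein-coding gene began on the opposite strand within 1000 bases of the start of 32 of the 76 protein-coding members (42.1%), against 2034 of 13253 protein-coding genes of the table (15.3%). The partner was in the table for 30 members, which form 29 distinct pairs because Mrpl46 and Mrps11 are partners of each other. Of the 30 partners, 15 were higher in SVZ (where 33.7% of all genes were), 5 higher in DG (where 32.9% of all genes were) and 10 did not pass. In all, 66.7% were called, where 66.6% of all genes were. Of the 30 members beside them, 10 were called. The median size of the log2 fold change of the partners was 0.53, beside 0.69 in all genes, and 8 of them reached 1, where 35.6% of all genes did.

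Several members with small values lie beside a partner with a large one. Eme1, a DNA repair endonuclease gene, differed by -1.92 beside Mrpl27 at -0.13, and Ska3, a gene of chromosome segregation, by -1.40 beside Mrpl57 at -0.15. Pnpla7, a lysophospholipase gene, was higher in DG by 2.45 beside Mrpl41 at 0.05. Lrrc46 was higher in SVZ (-1.85) beside Mrpl10 at 0.27, and Hira, a histone chaperone gene, was higher in SVZ (-1.51) beside Mrpl40 at -0.27. In 7 pairs both genes were called, and all 7 had the same direction. Of the 25 called members 24 were higher in SVZ, and of the called partners 15 were higher in SVZ and 5 in DG. A shared direction is frequent with such counts, and whether paired genes change together was not tested. Some of these pairs also share exon bases, among them Mrpl18 with Tcp1 and Mrpl13 with Mtbp. Mrpl18 and Tcp1, a subunit of the cytosolic chaperonin, were at -0.72 and -0.83, and Mrpl13 and Mtbp at -0.65 and -0.64. Mrpl51 and Ncapd2, a condensin subunit, start 100 bases apart and share no exon bases. They were at -0.49 and -1.62. Cell cycle markers were higher in SVZ as well (15 of 16), and their part in these partners was not tested.

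**Figure D4:**
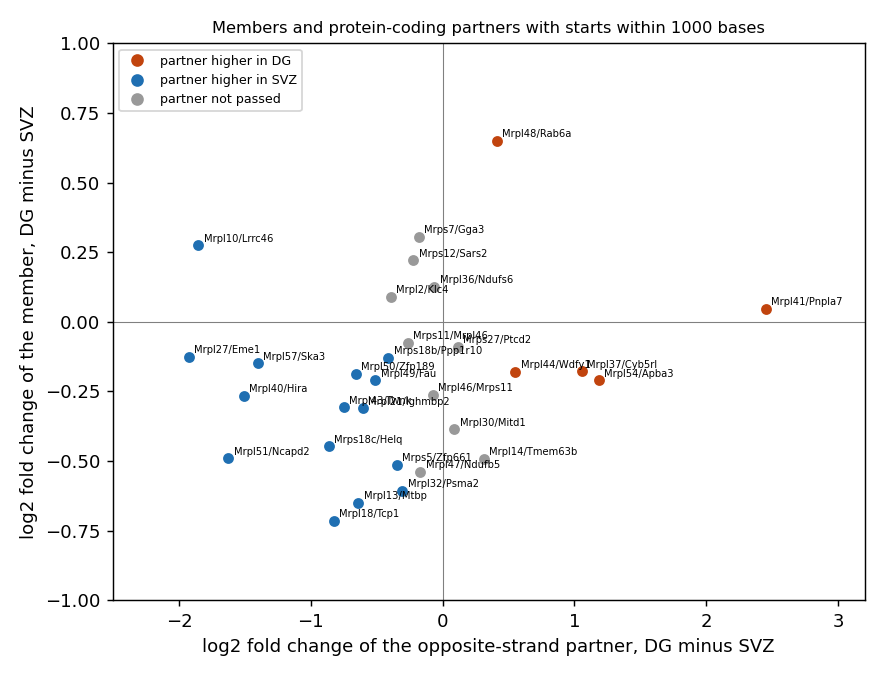
Log2 fold change, DG minus SVZ, of members (vertical axis) against that of the protein-coding gene that starts within 1000 bases on the opposite strand (horizontal axis), for the 30 members with such a partner in the table; colours give the call of the partner. Partners spread from -1.92 to 2.45 and members from -0.72 to 0.65.

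Since the libraries do not mark strand, reads from exons shared with an opposite-strand gene cannot be assigned by strand. Among the members, 18 share exon bases with an opposite-strand gene of the table, and 6 of these were called. In 6 members at least 20% of the exon bases are shared with such opposite-strand genes. They are Mrps25 (69.8%, with Nr2c2), Mrpl19 (36.0%, with Gcfc2), Mrpl43 (33.4%, with Twnk) and Mrps18b (30.5%, with Gm16279), together with Mrpl24 (26.3%, with Rrnad1) and Mrpl47 (24.2%, with Actl6a and Ndufb5 together). Of these 6, Mrpl19 (log2 fold change -0.43, limma adjusted p = 0.0032) and Mrpl47 (-0.54) were called, and their values are uncertain to that extent. Beside Mrpl47, Actl6a was higher in SVZ (-1.01) and Ndufb5 did not pass (-0.17). For Mrpl18 and Mrpl13 the shared part was 10.1% (with Tcp1) and 4.16% (with Mtbp) of the exon bases. Tcp1 had a mean of 8.68 log2 CPM over all libraries, against 6.61 for Mrpl18. How much reads of Tcp1 weigh in the values of Mrpl18 was not tested.

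The member genes were set beside other genes of mitochondrial gene expression, whose counts are read against 33.7% of all genes higher in SVZ and 32.9% higher in DG. Of 5 ribosome proteins without an Mrp symbol, 2 passed as higher in SVZ and 0 as higher in DG (median log2 fold change -0.10): Chchd1 (-0.56, limma adjusted p = 0.0145) and Ptcd3 (-0.28, adjusted p = 0.0442). The first call was lost without the 3 libraries (adjusted p = 0.0714) and the second under 12 of 16 alternatives. Of 31 genes of ribosome assembly, 6 (19.4%) passed as higher in DG and 5 (16.1%) as higher in SVZ (median -0.15). Mpv17l2, which binds the large subunit during assembly, was higher in DG by 1.36, and Trmt2b, which methylates mitochondrial RNAs, by 0.62. Afg1l, a mitochondrial ATPase known for protein quality control rather than for building ribosomes, is counted among the 6 and was higher in DG by 2.42. Tfb1m, which methylates the small ribosomal RNA, was lower in DG, at 2.53 ± 0.65 against 4.57 ± 0.11 log2 CPM (log2 fold change -2.04, SE 0.29, limma adjusted p = 9.28e-05). Mterf4, which brings a methyltransferase to the large subunit, differed by -0.58 and the helicase gene Dhx30 by -0.34.

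Of 15 mitochondrial translation factors, 5 passed as higher in SVZ (33.3%, the background share being 33.7%) and 0 as higher in DG (median -0.06), and 3 were higher in SVZ without DG 1, DG 4, SVZ 2 or SVZ 4. Among them were Metap1d, which removes the first methionine (-1.24), the initiation factor gene Mtif2 (-0.47) and the elongation factor gene Guf1 (-0.86), whose call was lost under 1 of the 15 alternatives that it entered. Of 20 mitochondrial tRNA synthetases, 1 was higher in DG (Tars2, 0.36) and 1 in SVZ (Wars2, -0.33), with a median of -0.03. The call of Wars2 was lost under 12 of 16 alternatives, and the SVZ count was 4 without SVZ 4.

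Of 24 genes of mitochondrial transcription and RNA processing, 9 (37.5%) passed as higher in SVZ and 1 as higher in DG (median -0.35). The RNA-binding protein genes Grsf1 (-1.04) and Lrpprc (-0.96) and Fastkd3 (-0.51) were higher in SVZ, and Rexo2, an exonuclease that clears short RNAs, was higher in DG (0.67). The DG count was 2 without SVZ 2. Of 12 regulators of mitochondrial biogenesis, 6 (50%) passed as higher in SVZ and 2 as higher in DG (median -0.38). Nrf1, whose motif was searched above, was at 6.61 ± 0.15 in DG and 7.37 ± 0.15 log2 CPM in SVZ (log2 fold change -0.76, limma adjusted p = 7.16e-05), Hcfc1 differed by -0.89 and Gabpb1, a GABP subunit, by -1.32. The coactivator genes Ppargc1a and Ppargc1b went the other way, at 1.25 and 4.46. The members with NRF1 letters had a median log2 fold change of -0.26 and the searched members without them -0.22, and the values for ETS letters were -0.27 and -0.21 and for YY1 letters -0.18 and -0.26. Of 33 genes of protein import and mitochondrial mass, 8 (24.2%) passed as higher in SVZ and 0 as higher in DG (median -0.19), among them Tomm70a (-0.74), Vdac3 (-0.36) and Tomm22 (-0.45), and 1 was higher in DG without DG 3.

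Most genes of the cytosolic ribosome were higher in SVZ. They numbered 70 of 80 (87.5%), with 0 higher in DG and a median log2 fold change of -0.64 beside -0.22 in the mitochondrial members. Rpl7a was at 7.95 ± 0.32 in DG and 8.70 ± 0.07 log2 CPM in SVZ (-0.75). The count was 46 without SVZ 3 and 42 without DG 2, DG 3 and SVZ 1. Many ribosomal protein genes have near-identical pseudogenes, so single genes of this list are uncertain. The difference between the lists was not tested.

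Only a part of the messenger RNAs that the mitochondrial ribosome translates is in the table. That part was higher in SVZ, and the libraries of the groups overlapped in 4 of its 7 genes. All 7 mitochondrially encoded messenger RNAs in the table passed in that direction (median -0.72), with mt-Co1 at 9.28 ± 0.26 in DG and 10.25 ± 0.23 log2 CPM in SVZ (log2 fold change -0.97, limma adjusted p = 0.000153) and mt-Nd1 and mt-Nd4 both at -0.83. Their summed level was 8703 CPM in SVZ 4 against 5325 to 6093 CPM in the other SVZ libraries, and 4989 CPM in DG 3 against 3079 to 3762 CPM in the other DG libraries. Without SVZ 4, 5 passed and the median was -0.54, and without DG 3 all 7 passed and the median was -0.83. The 79 nuclear genes of oxidative phosphorylation, whose products assemble with them, had a median of -0.11, with 10 (12.7%) higher in SVZ and 9 (11.4%) in DG. The SVZ count was 25 without DG 5 and 4 without SVZ 3. Atp5f1 (-0.46), Ndufs4 (-0.56) and Cox7a2l (-0.56) were higher in SVZ. Cox4i2 and Cox6b2, isoforms of respiratory subunits that only some cell types use, were higher in DG by 5.38 and 1.45, and Atp5s by 0.89, in libraries whose pericyte markers summed to 6233 to 13141 CPM against 82.9 to 202 CPM in SVZ. Whether those cells account for these values was not tested.

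**Figure D5:**
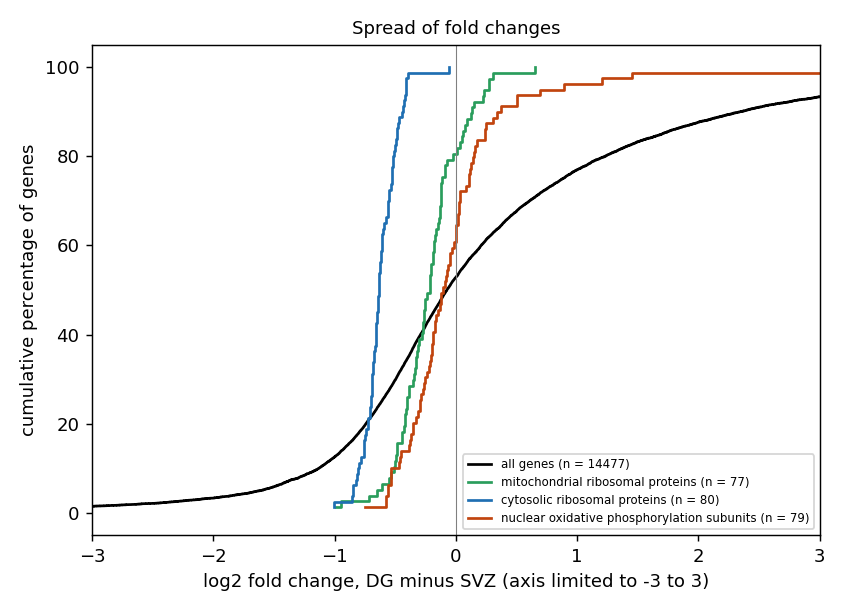
Cumulative percentage of genes (vertical axis) by log2 fold change, DG minus SVZ (horizontal axis, limited to -3 to 3), for all 14477 genes, the 77 mitochondrial and 80 cytosolic ribosomal protein genes and 79 nuclear oxidative phosphorylation genes. The medians are -0.07, -0.22, -0.64 and -0.11, and the mitochondrial ribosomal genes rise within a range from -0.99 to 0.65.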

How the data were processed

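The deposited table holds log2 CPM values made by the authors, 14477 genes in 9 columns. STAR, edgeR and mm10 are named in the submitters' processing notes as what the authors used; versions, read counter, gene annotation and filters: not given in the sources used here. Per the labels' protocols, cDNA was primed with poly-dT, amplified and made into unstranded libraries, without molecular identifiers. The values follow from whole reads with a prior count of 1 read and no further scaling: the formula returned each value within 5.33e-14, and recovered reads were whole for 100% of values (tolerance 0.001). Totals over these genes were 31126803 to 41164044 reads per library, so that 1 read is worth 0.0243 to 0.0321 CPM, and chi-square per degree of freedom between libraries of a group was 19.84 to 173.6, so none is a repeat deposit.

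Every deposited log2 value entered the test, limma 3.58.1 with its mean-variance trend in R 4.3.3, tissue as the only term, all 5 DG and 4 SVZ libraries and Benjamini-Hochberg adjustment over all genes, threshold 0.05; it was tested on simulated data. Fold changes carry the prior count and understate low genes. GENCODE M21 gave symbols (14428 matched, 49 did not), coordinates (1-based) and exons, tabulated with Python 3.11.15 and pandas 2.3.3. Lists were described by counts and medians, with no set test. The members and lists were chosen with earlier results of these data known. Named members were those with the 8 largest called differences per direction, all of the stalk, central protuberance, exit tunnel and decoding groups, Mrps18a, Mrps18b, Mrps18c, Mrps30, Mrps36, and the 3 highest and 3 lowest per kilobase. Of each other list up to 3 per direction were named by smallest adjusted p, and some genes that this takes are not reported here. Alternatives were other scalings, a prior count of 5, a filter at a mean of 3 log2 CPM, a replicate block and leaving out libraries. edgeR and DESeq2 count tests were not run here, because the deposited unit is log2, and limma's voom on the recovered reads stood in for them.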

Additional observations from a re-analysis of the deposited data

Results flagged for a closer look

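The lowest and highest library of each group was compared with the others for the named members and the list means, 90 groups in all, and chance flags about 1 in 20. A single library stood out in 2 of them. Mrpl44, whose product resembles a ribonuclease and lies near the exit tunnel, was at 5.022 log2 CPM in SVZ 4, against 5.716 to 5.845 in the other SVZ libraries (gap of 0.844 of the range). Without SVZ 4 it was higher in SVZ (adjusted p = 0.00896), whereas with all libraries it did not pass (adjusted p = 0.349). Mrps5 was at 5.833 log2 CPM in DG 3, against 6.396 to 6.511 in the other DG libraries (0.831 of the range), and its call held under all 16 alternatives. DG 3 was also the lowest DG library in 57 of 77 members, had the lowest cytosolic ribosomal protein sum (11654 CPM) and the highest mature neuron marker sum (960 CPM). What sets these libraries apart was not tested.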

How the results depend on the processing

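Of the 25 called members, 15 kept their call under every alternative that they entered, 16 for Mrpl34, Mrpl18, Mrpl13, Mrpl32, Mrpl47, Mrps5, Mrps22, Mrpl48 and others and 15 for Mrps35, which the filter on low values removed. The calls nearest the threshold, Mrpl35 and Mrps33, were lost under 12, Mrps17 under 6, Mrpl39 under 4, and Mrpl28 and Mrpl42 under 3; Mrpl14, Mrpl20, Mrpl30 and Mrps18c lost it without DG 2, DG 3 and SVZ 1 alone. Median-of-ratios scaling, voom (with the TMM factors) and the fit without DG 2, DG 3 and SVZ 1 were chosen after seeing the data. The planned edgeR and DESeq2 count tests were not run, because the deposited unit is log2. The causes of the shifts below were not tested, and some of these fits hold fewer samples or genes.

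Members higher in SVZ numbered 20 under TMM, 22 under median-of-ratios and 20 under voom, where 30.9%, 31.9% and 31.0% of all genes were. Members higher in DG numbered 3 under TMM, median-of-ratios, voom and without the 3 libraries. Those of the large subunit numbered 2, 2, 2 and 3. Small-subunit genes higher in DG numbered 1 under TMM, median-of-ratios and voom. Without the 3 libraries, 14 members, 10 large-subunit and 4 small-subunit genes were higher in SVZ, with 42 cytosolic ribosomal, 4 oxidative phosphorylation, 0 tRNA synthetase and 0 ribosome genes without an Mrp symbol, and Mrps24 reversed to 0.0045. Ribosome genes without an Mrp symbol higher in SVZ numbered 1 under TMM, median-of-ratios, the block and voom, and 1 was higher in DG under TMM and voom. Of the tRNA synthetases 0 were higher in SVZ under TMM, median-of-ratios, the block and voom, and 2 were higher in DG under TMM and the block. Of the import genes 1 was higher in DG under TMM and voom. The filter at 3 log2 CPM left 3 assembly genes and 1 biogenesis regulator higher in DG, 3 translation factors higher in SVZ and a median of -0.26 for RNA processing.

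With 1 library left out, members higher in SVZ ranged from 20 to 31, members higher in DG from 1 to 4 and the median from -0.29 to -0.17. Of all genes, 30.7% (without SVZ 1) to 33.3% (without DG 3) were then higher in SVZ. Genes higher in DG ranged from 1 to 3 in the large and from 0 to 1 in the small subunit, from 1 to 2 among the tRNA synthetases and in RNA processing, and from 0 to 1 in import. Genes higher in SVZ ranged from 1 to 2 without an Mrp symbol, from 3 to 5 among translation factors, from 0 to 4 among tRNA synthetases, from 46 to 78 in the cytosolic ribosome and from 4 to 25 in oxidative phosphorylation.

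The replicate numbers did not pair the samples: same-numbered DG and SVZ libraries deviated with correlations of -0.05, -0.17, 0.01 and -0.11 for numbers 1 to 4. With the replicate block, 28 members passed as higher in SVZ and 1 as higher in DG, the median was -0.29, 3 translation factors and 19 oxidative phosphorylation genes were higher in SVZ, and DG 5, alone in its block, added nothing to the contrast. The block ended the calls of Mrpl39 (adjusted p = 0.0592), Guf1 (adjusted p = 0.0678), Ptcd3 and Wars2.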
